A study of Homo sapiens with 18 samples.

Results

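U2OS cells that carried any of 3 EWS-FLI1 constructs were compared with U2OS cells that carried mCherry alone, and the genes that differed in the same direction in all 3 lines are described. The comparison used 12 of the 18 polyA RNA libraries of the series: 9 untreated libraries with a fusion construct, 3 per line, and 3 mCherry libraries. Each line had the same weight in the mean, and a gene counted as common when each line differed from mCherry with the same sign at an adjusted p under 0.05. Of 16786 genes tested, 195 were common, 132 of them higher and 63 lower with a fusion.

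U2OS is a human osteosarcoma cell line. The control line carried mCherry alone. Of the fusion lines, the first carried mCherry-EWS-FLI1, another the construct titled mCherry-EWS-FLI1mut, and the last the construct titled mCherry-EWS(YS37)-FLI1. By title, mCherry was thus part of what all 12 libraries' cells carried; integration into the genome is stated for mCherry-EWS-FLI1. The labels do not say what the changes in EWS-FLI1mut and EWS(YS37)-FLI1 are, whether a line was a clone or a pool, which promoter drove the constructs or whether untreated cells received a vehicle. Of the 2 library kits that the labels name, which was used for a given library is not said. In the other 6 libraries the mCherry-EWS-FLI1 line had been exposed to 7.5 µM LY2835219. This compound, abemaciclib, blocks CDK4 and CDK6, which drive cells out of G1. Titles give exposures of 6 h and of 24 h, although the treatment protocol in the labels gives other times. The labels call libraries biological replicates without saying whether they were separate cultures, so p values measure the spread between these libraries. Each construct is represented by a single line, and a difference that all 3 fusion lines share cannot be told apart from a difference that arose in the mCherry line.

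EWS-FLI1 is the fusion protein of most Ewing sarcomas. It joins the disordered amino-terminal part of the RNA-binding protein EWS, which can recruit the transcription machinery, to the carboxy-terminal part of FLI1, a transcription factor of the ETS family whose DNA-binding domain recognises sites with a GGAA core. In Ewing sarcoma cells the fusion is known to activate some genes, often from repeats of GGAA, and to repress others, among them genes of mesenchymal differentiation, the cytoskeleton and the matrix.

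Gene counts per library ranged from 15833103, in mCherry replicate 2, to 19720986. The share of mitochondrial counts averaged 4.66% in the fusion libraries and 4.73% in the mCherry libraries (exact permutation test, two-sided, p = 0.673). Some osteoblast genes were present. COL1A1, a chain of bone's type I collagen, averaged 1749 CPM (counts scaled to the size of the library) in the mCherry libraries. SPARC, a matrix protein of bone, averaged 1865 there. COL1A2, another type I collagen chain, averaged 0.406 in mCherry and 1.30 in EWS-FLI1, its highest group mean. BGLAP (osteocalcin), IBSP (bone sialoprotein) and SP7, later markers of osteoblasts, were each under 0.5 in the means of all 4 groups.

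The constructs' own genes came first in the ranking. From here on, CPM values are also scaled by TMM factors, except for summed marker levels. FLI1 (ENSG00000151702, chromosome 11, 128686535 to 128813267 in hg38, plus strand) lay at 1.16, 0.426 and 0.0534 CPM in the mCherry libraries. It lay at 265, 232 and 245 CPM in the EWS-FLI1 libraries, at 664, 634 and 626 CPM in the EWS-FLI1mut libraries and at 1001, 987 and 1069 CPM in the EWS(YS37)-FLI1 libraries. The 4 groups did not overlap, and the EWS(YS37)-FLI1 line held the highest level. On the log2 scale the mean of the 3 lines was 9.92 ± 0.16 (SE) above mCherry (edgeR quasi-likelihood test, adjusted p = 1.8e-22).

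EWSR1 (ENSG00000182944, chromosome 22, 29268009 to 29300525, plus strand), the gene of the other fusion partner, was already expressed in the mCherry libraries at 348, 329 and 343 CPM. It was at 742, 724 and 751 CPM with EWS-FLI1, at 1224, 1161 and 1136 CPM with EWS-FLI1mut and at 948, 918 and 975 CPM with EWS(YS37)-FLI1. Here EWS-FLI1mut held the highest level, so the order of the lines differed from that of FLI1. The mean of the lines was 1.46 ± 0.04 above mCherry in log2 counts (edgeR adjusted p = 2.8e-17). In mean TPM, which divides by transcript length, EWSR1 went from 222 in mCherry to 1388 in EWS-FLI1, 2262 in EWS-FLI1mut and 1609 in EWS(YS37)-FLI1, a wider gap than in counts. Reads from a construct and from the cell's own EWSR1 or FLI1 cannot be told apart in these gene sums. Of the 449 distinct 31-base stretches of the most abundant EWSR1 transcript, 28.95% also occur in transcripts of other genes. The other EWSR1 transcripts were not searched in this way.

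CLDN1 (ENSG00000163347, chromosome 3, 190305701 to 190322475, minus strand) came next after FLI1 and EWSR1 when genes of at least 5 CPM without overlap were ranked by their smallest change over the 3 lines. It encodes claudin-1, a membrane protein that seals tight junctions between epithelial cells. Its level was 5.22, 5.36 and 5.39 CPM in the mCherry libraries. It was 26.4, 19.8 and 20.1 CPM with EWS-FLI1, between 9.11 and 12.2 CPM with EWS-FLI1mut and 39.3, 44.3 and 44.9 CPM with EWS(YS37)-FLI1. All 9 fusion libraries lay above all 3 mCherry libraries, and the 3 lines did not overlap each other. The mean was 2.03 ± 0.12 higher in log2, about 4.07-fold (edgeR adjusted p = 5.9e-11), and the difference among the 3 lines, which uses no mCherry library, was also called (adjusted p = 2.0e-11). When the 9 fusion libraries were fitted as a single group, so that the spread between lines entered the error, the CLDN1 change was 2.24 with an adjusted p of 0.0801 in edgeR.

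The 250 bases before the CLDN1 start in RefSeq (GRCh38.p14, chr3:190322447-190322696, minus strand, printed 5′ to 3′ of the gene) are shown because CLDN1 had the largest mean rise among common genes outside the constructs. The RefSeq start lies inside the GENCODE gene. Capitals mark matches of the ETS core GGAA, or TTCC on the opposite strand.

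CLDN1: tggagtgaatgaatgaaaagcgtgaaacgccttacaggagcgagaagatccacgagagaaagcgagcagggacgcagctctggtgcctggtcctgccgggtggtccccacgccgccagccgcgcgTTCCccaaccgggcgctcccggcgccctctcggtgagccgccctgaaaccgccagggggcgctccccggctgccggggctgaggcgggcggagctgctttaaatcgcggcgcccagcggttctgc

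The stretch held 1 GGAA match and no match of GGAAGGAA, a back-to-back pair of that core. A match is a description of letters, and its absence in this window says only that the letters are not there. Of 23 claudin and tight junction genes on a list, 20 were tested, and CLDN1 alone was common. In the mean of the lines 4 members were higher, and CLDN4 was lower (-0.46 in log2, edgeR adjusted p = 0.00704). The shares over all genes tested were 6.7% higher and 6.05% lower.

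The mean of the 3 lines differed from mCherry in 2139 genes, 12.7% of those tested, with 1124 higher (6.7%) and 1015 lower (6.05%). At a log2 change of at least 1, 60 were higher (0.357%) and 44 lower (0.262%). Single lines differed to unlike extents: 1866 were higher with EWS-FLI1 (11.1%) and 1670 lower (9.95%), 592 higher with EWS-FLI1mut (3.53%) and 608 lower (3.62%), and 1937 higher with EWS(YS37)-FLI1 (11.5%) and 1708 lower (10.2%). The 132 genes higher in all 3 lines were 0.786% of the genes tested, and the 63 lower in all 3 were 0.375%. The 3 line comparisons share the same 3 mCherry libraries, so these counts describe the rule and are not independent support. Of the genes called higher in the mean, 393 were called in the same direction in 1 line, 593 in 2 lines and 132 in 3; of those called lower, the counts were 479, 462 and 63. Together the common genes were 1.16% of those tested. A further 120 genes (0.715%) were called in all 3 lines with mixed signs.

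Changes were small. The median log2 change of the 132 higher genes was 0.44 in the mean of the lines, with 0.48 for EWS-FLI1, 0.38 for EWS-FLI1mut and 0.42 for EWS(YS37)-FLI1. For the 63 lower genes it was -0.35 in the mean, with -0.35, -0.31 and -0.35 in the same order. Of the 195 genes, 5 (FLI1, EWSR1, CLDN1, ALDH1A3 and ATOH8) rose by at least 1 on the log2 scale in every line, and none fell by that much in every line. All 195 were protein-coding, against 91.9% of the genes tested. In 118 of the higher (0.703%) and 59 of the lower genes (0.351%) the 9 fusion libraries did not overlap the 3 mCherry libraries in CPM, beside 359 (2.14%) and 363 (2.16%) of all genes tested. Genes named below by rank were taken from those without overlap, so their lack of overlap follows from the rule.

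**Figure D1:**
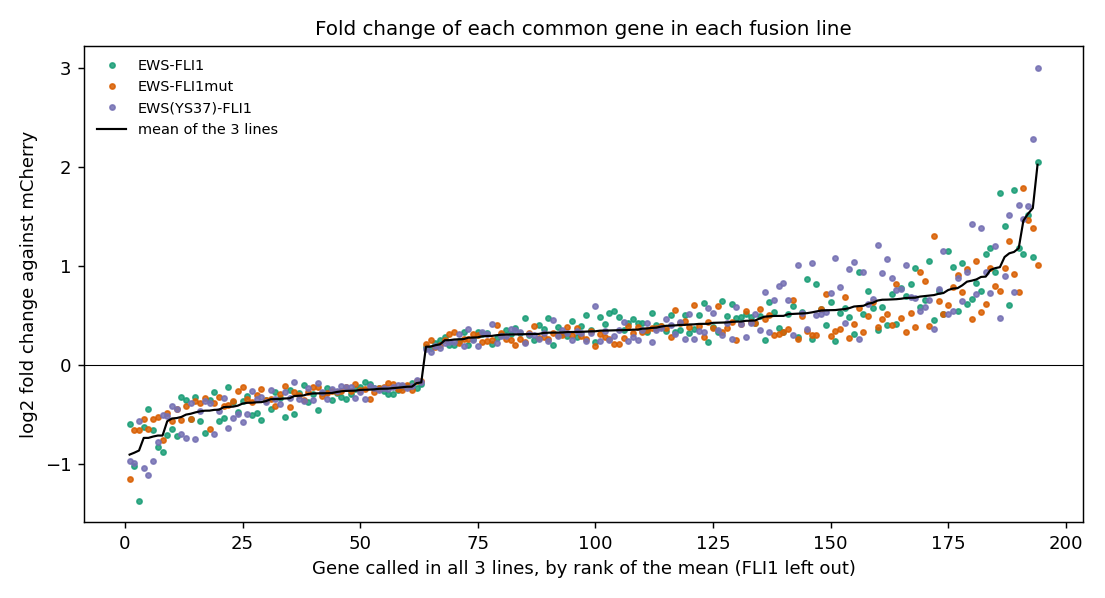
Log2 fold change against mCherry (vertical axis) of each of the common genes, FLI1 left out, ranked by the mean of the lines (horizontal axis); points are the 3 lines and the black line is their mean. The mean reaches -0.91 for GALNT15 at the lower end and 2.03 for CLDN1 at the upper end, where its lines lie at 1.01, 2.05 and 3.01.

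The counts depended on which libraries and which error were used. With the 9 fusion libraries as a single group, 40 genes were higher and 12 lower, and 40 and 11 of those were among the common genes. Without mCherry replicate 2, the library of lowest depth, 68 common genes were higher and 25 lower; without mCherry replicate 3, 87 and 28; without EWS-FLI1mut replicate 1, 79 and 35. Leaving out EWS-FLI1mut replicate 2 or 3 or EWS(YS37)-FLI1 replicate 1 left 32, 38 and 39 lower genes. A correction for the effective transcript length of each library gave 53 and 12. In the text below, a gene is called stable when it stayed common without each of the 12 libraries in turn and with the length correction, which held for 31 higher and 7 lower genes. Genes described below that lost the common call with the length correction were PAPPA, EPAS1, FBLIM1, ALDH1A3, ATOH8, LAMA5, ITGA3, LIMA1, ACTN4, LMO7, IER2, DUSP1, NFKBIA, GDF15, PLK3, GADD45A, CCND2, ELF4, HHIP and SEMA3F among the higher ones. Among the lower ones they were NQO1, DPYSL3, GALNT15, PALM3, MNS1, IFT74, HAUS1, PCNT, CENPF, KIF14, TTK, HMMR, BRCA1, SMC3, STAG1, BTAF1, HAT1, USP16, BST2, JAKMIP2, SERPINF1 and CCDC77. ARPC1A, which was higher, also lost it. NR4A1, CDH4, SEMA7A and SMC4 kept the common call with the length correction but were not stable. They stayed common in 11, 9, 7 and 8 of the 12 fits without a library. With the fusion libraries as a single group, the call was also lost for some stable genes described below, as for CLDN1. These were CYR61, MYL9 and KRT75 of the higher ones and LRRCC1 and CLPTM1L of the lower ones.

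Adhesion and matrix genes are taken first among the higher genes. ITGA2, the alpha-2 chain of the collagen-binding integrin, was at 23.2, 31.3 and 31.6 CPM in mCherry. In the EWS-FLI1 line it was at 57.6, 44.6 and 50.3 CPM, in EWS-FLI1mut at 62.0, 61.0 and 54.6 CPM and in EWS(YS37)-FLI1 at 52.0, 39.1 and 50.7 CPM. The lowest fusion library exceeded the highest mCherry library, and the lines overlapped each other. ITGA2 rose by 0.86 ± 0.10 in log2 (edgeR adjusted p = 5.0e-06), and it was stable.

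CD82, a tetraspanin of the cell surface that organises integrins, was among the genes named for even changes over the lines. Its evenness thus follows from that choice. Its mCherry libraries were at 14.8, 16.9 and 16.5 CPM, and its fusion libraries lay between 23.7 and 28.4 CPM. The log2 changes were 0.74, 0.65 and 0.77 for EWS-FLI1, EWS-FLI1mut and EWS(YS37)-FLI1, and the test of a difference among the lines gave an adjusted p of 0.513 in edgeR. HSPG2, which encodes perlecan, a heparan sulfate proteoglycan of basement membranes, had mCherry libraries at 247, 179 and 193 CPM and fusion libraries between 269 and 357 CPM. It rose by 0.62 ± 0.09 (edgeR adjusted p = 4.2e-05), and the mCherry libraries spread more than those of any single line except EWS-FLI1mut.

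Other surface and matrix genes rose in each line. PCDH7, a protocadherin, rose by 0.70 ± 0.08, LAMA5, a laminin chain of basement membranes, by 0.52 ± 0.06, and BCAM, a receptor for that laminin chain, by 0.45 ± 0.06 in log2 (edgeR). MMP24, a membrane-anchored metalloproteinase, rose by 0.82, 0.52 and 0.69 in the lines. PAPPA, a protease that cleaves binding proteins of insulin-like growth factors, was at 6.80, 6.70 and 6.78 CPM in mCherry and between 10.0 and 15.9 CPM in the fusion libraries, a rise of 0.98 ± 0.11 (edgeR adjusted p = 2.1e-06). Of 21 integrin subunits tested, 2 were common, ITGA2 and ITGA3, and 3 were called in all lines with mixed signs. The shares over all genes tested were 1.16% and 0.715%. In the mean of the lines 4 integrin subunits were higher and 3 lower, beside 6.7% and 6.05% of all genes tested. Of 33 collagen genes tested none was common, which at this size is near the share over all genes. In the mean of the lines 8 collagen genes were higher and 3 lower. The median collagen change was 0.52 in EWS-FLI1, 0.11 in EWS-FLI1mut and -0.17 in EWS(YS37)-FLI1.

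**Figure D2:**
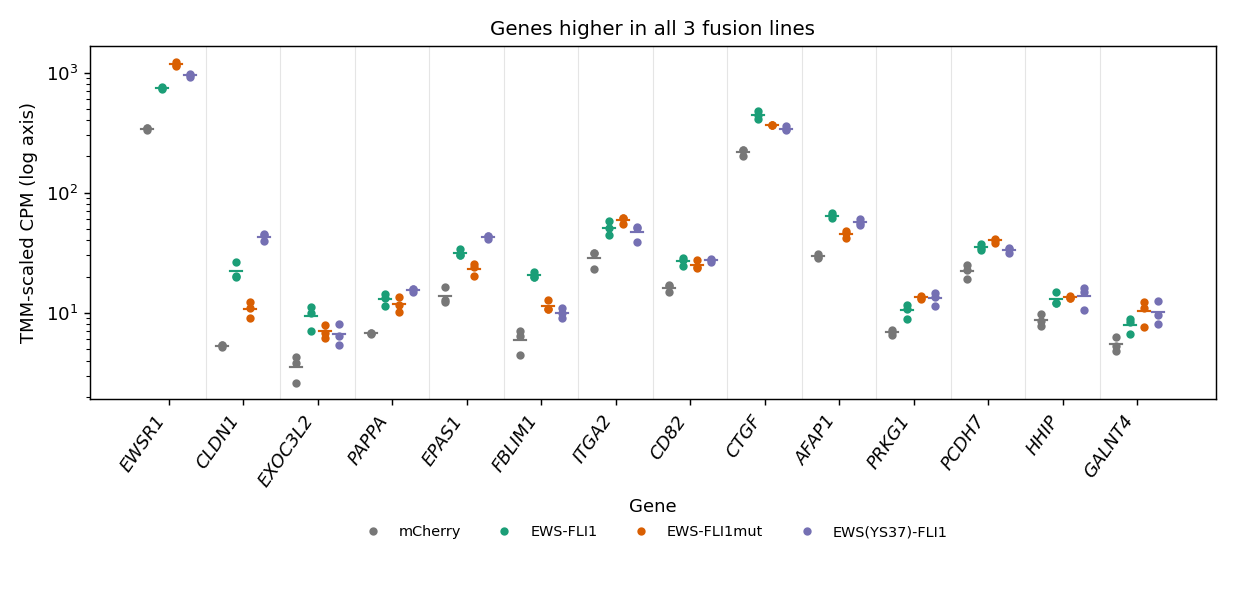
CPM (vertical axis, log scale) in each of the 12 untreated libraries for genes of the higher set, where points are libraries and bars are group means. They are those with the largest smallest change over the lines, among genes averaging at least 5 CPM in the fusion groups without overlap. FLI1 is left out, and ALDH1A3 and ATOH8 did not meet these limits. By the rule of choice, the 9 fusion libraries lie above the 3 mCherry libraries in each gene. CLDN1 shows the 3 lines apart from each other.

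Genes of YAP and TEAD signalling and of the actin cytoskeleton come next. CTGF, also called CCN2, a secreted matricellular protein and a textbook target of the YAP and TEAD transcription factors, was at 204, 227 and 225 CPM in mCherry. It was at 483, 444 and 412 CPM with EWS-FLI1, at 364, 364 and 368 CPM with EWS-FLI1mut and at 356, 333 and 337 CPM with EWS(YS37)-FLI1. All fusion libraries were higher than all mCherry libraries, and EWS-FLI1 was the highest line. The rise was 0.80 ± 0.05 in log2 (edgeR adjusted p = 1.1e-09). CYR61, or CCN1, its close relative, rose by 0.85 ± 0.05 with its highest level in EWS(YS37)-FLI1 instead, 447, 466 and 474 CPM against 180.4, 168 and 168 CPM in mCherry. Both are on a list of genes reported as repressed by EWS-FLI1 in Ewing sarcoma cells, and here both were higher. Of the 27 YAP and TEAD genes tested, 3 were common (CTGF, CYR61 and GADD45A), 15 were higher in the mean of the lines and 1 was lower. Their median was 0.21 beside -0.01 for all genes tested, of which 6.7% were higher and 6.05% lower.

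AFAP1, which links actin filaments and binds the kinase SRC, was at 29.2, 28.8 and 30.6 CPM in mCherry and between 42.2 and 67.5 CPM in the fusion libraries, a rise of 0.89 ± 0.07 (edgeR adjusted p = 1.2e-08). MYL9, the regulatory light chain of smooth muscle and non-muscle myosin, was at 155, 155 and 157 CPM in mCherry, between 306 and 308 CPM with EWS-FLI1, at 217, 197 and 195 CPM with EWS-FLI1mut and at 255, 247 and 245 CPM with EWS(YS37)-FLI1. Each line of MYL9 stood clear of the others. FBLIM1, which couples filamin to cell-matrix contacts, rose by 1.14 ± 0.11, with 1.77 in EWS-FLI1 and 0.73 in EWS(YS37)-FLI1. Further common genes with actin or contact roles were FHL2, LIMA1, ACTN4, LMO7 and TRIP6. Of 23 genes of the SRF and smooth muscle list, 14 were higher in the mean of the lines and 1 was lower. Among all genes tested 6.7% were higher and 6.05% lower. MYL9 and FHL2 were the common members. The EWS-FLI1mut line had a list median of 0.10 against 0.53 for EWS-FLI1 and 0.28 for EWS(YS37)-FLI1. MYOCD, the smooth muscle co-activator of SRF, was the member that was lower (-1.85, edgeR adjusted p = 2.5e-06), with -1.13, -0.57 and -3.86 in the lines.

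EPAS1 encodes HIF-2 alpha, an oxygen-regulated factor. Its mCherry libraries were at 16.3, 12.4 and 12.9 CPM. It was at 31.5 ± 2.20 CPM (SD, n = 3) with EWS-FLI1, at 23.9, 25.4 and 20.2 CPM with EWS-FLI1mut and at 43.8, 43.2 and 41.2 CPM with EWS(YS37)-FLI1. None of the 4 groups overlapped, and the order of the lines was that seen for CLDN1. EPAS1 rose by 1.18 ± 0.09 (edgeR adjusted p = 1.1e-08). Of 28 glycolysis and hypoxia genes none was common, 1 was higher in the mean of the lines and 9 were lower. Over all genes tested, 6.7% were higher and 6.05% lower. ATOH8, a basic helix-loop-helix factor, and ALDH1A3, an enzyme that makes retinoic acid, rose by 1.59 ± 0.26 and 1.53 ± 0.30 from low levels of 1.98 and 0.706 CPM in the mCherry means, and the ATOH8 libraries overlapped.

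NR4A1, an orphan nuclear receptor induced within minutes of stimulation, was at 24.8, 22.4 and 25.8 CPM in mCherry and between 30.7 and 39.9 CPM in the fusion libraries, a rise of 0.51 ± 0.07 (edgeR adjusted p = 2.4e-05). IER2, another early gene, rose by 0.35 ± 0.06, and DUSP1, a phosphatase that switches off MAP kinases, by 0.68 ± 0.08. Of 21 early genes tested, 12 were higher in the mean of the lines and none lower, beside 6.7% and 6.05% of all genes tested. Their median was 0.33, but only NR4A1 and IER2 were common. FOS changed by 0.94 and 0.88 with EWS-FLI1 and EWS-FLI1mut and by -0.17 with EWS(YS37)-FLI1, and EGR1 by 0.87, 0.85 and 0.03. ZFP36L2, which destabilises mRNAs with AU-rich elements, was also named for even changes over the lines. It was at 54.8, 50.3 and 47.6 CPM in mCherry and 64.3 to 84.3 CPM in the fusion libraries, and it was stable.

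The NF-kB list had the largest median of the lists other than those of the constructs and markers, and a single common gene. Of its 24 tested members 17 were higher in the mean of the lines and none lower, with a median of 0.68. For all genes tested the shares were 6.7% higher and 6.05% lower. The list medians by line were 0.44 for EWS-FLI1, 0.18 for EWS-FLI1mut and 1.16 for EWS(YS37)-FLI1. NFKBIA, the inhibitor that holds NF-kB in the cytoplasm and is itself a target of it, was the common member. It was at 24.9, 23.7 and 26.7 CPM in mCherry, at 33.9, 29.9 and 32.3 CPM with EWS-FLI1, at 33.0, 31.3 and 34.1 CPM with EWS-FLI1mut and at 64.2, 56.2 and 54.8 CPM with EWS(YS37)-FLI1. The fusion libraries did not overlap the mCherry libraries, and EWS(YS37)-FLI1 was the highest line. CCL2, a chemokine on the same list, had mixed signs: it was called higher with EWS-FLI1 and EWS(YS37)-FLI1 and lower with EWS-FLI1mut.

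Growth-arrest genes of the p53 pathway included 4 common genes of 27 tested, all higher: GDF15, PLK3, BTG2 and GADD45A. Of all genes tested, 0.786% were common and higher. In the mean of the lines 10 members were higher and 1 lower, beside 6.7% and 6.05% of all genes tested. The list median was 0.16, with -0.01 in EWS-FLI1, 0.22 in EWS-FLI1mut and 0.20 in EWS(YS37)-FLI1. BTG2, an antiproliferative co-regulator, rose from 37.7 ± 2.99 CPM (SD, n = 3) in mCherry to 47.1 ± 2.98, 49.2 ± 2.10 and 53.6 ± 2.41 CPM in the lines, and it was stable. CDKN1A, the best-known p53 target, was not common: its changes were -0.07, 0.34 and 0.56. Of the 15 genes of the CDK4/6 list, CCND2, a D-type cyclin, alone was common, with a rise of 0.34 ± 0.04. In the mean of the lines 5 of them were higher and 0 lower, beside the same shares of all genes tested.

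KRT8 and KRT18, the keratin pair of simple epithelia, lie beside each other on chromosome 12 and were both common and stable. KRT8 was at 332, 296 and 328 CPM in mCherry and between 417 and 522 CPM in the fusion libraries, a rise of 0.56 ± 0.04 (edgeR adjusted p = 1.2e-08). KRT18 was at 203, 194 and 212 CPM in mCherry and between 242 and 341 CPM, a rise of 0.55 ± 0.04. In these 2 genes 56.6% (KRT8) and 60.4% (KRT18) of the 31-base stretches of the most abundant transcript also occur in other genes. The counts of KRT8 and KRT18 are thus uncertain. KRT75, a keratin of hair follicles, rose by 0.99 ± 0.08, from 25.1, 29.4 and 34.6 CPM to 105, 90.3 and 102 CPM with EWS-FLI1 and to 41.0 to 54.9 CPM in the other lines. The summed level of all 12 epithelial markers was 530.4 to 578 CPM of gene counts in mCherry and 764 to 854 CPM in the fusion libraries. KRT8 and KRT18 made up nearly all of it: EPCAM averaged 3.02 to 5.86 CPM, CDH1 1.00 to 2.24 CPM, and KRT19 and GRHL2 under 0.15 CPM in each group. Endothelial markers, 14 of 14 tested, held no common gene and 4 that were higher in the mean of the lines. Of all genes tested, 6.7% were higher. The summed endothelial level was 82.7 to 92.7 CPM in mCherry and 93.3 to 146.9 CPM in the fusion libraries. It was 93.3 to 102 CPM with EWS-FLI1mut, the line nearest mCherry. ENG averaged 16.1 CPM in mCherry and 37.4, 16.7 and 32.8 CPM with EWS-FLI1, EWS-FLI1mut and EWS(YS37)-FLI1. CDH5 averaged 1.03 CPM in mCherry and 7.12, 0.571 and 10.1 CPM in the same order. KDR averaged 0.709 CPM in mCherry and less in each line. The part of other cell types in these results was not tested.

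SLC7A11 had the largest smallest change of the lower genes. It encodes xCT, the cystine-glutamate exchanger that supplies cysteine for glutathione. The mCherry libraries were at 149, 165 and 148 CPM. It was at 80.4, 77.9 and 69.5 CPM with EWS-FLI1, at 94.6, 106 and 92.3 CPM with EWS-FLI1mut and at 73.8, 82.7 and 75.6 CPM with EWS(YS37)-FLI1. Every fusion library was below every mCherry library, and EWS-FLI1mut was the least reduced line. SLC7A11 (ENSG00000151012, chromosome 4, 138164097 to 138242349, minus strand) fell by 0.89 ± 0.07 in log2, or 46.0% (edgeR adjusted p = 3.7e-09), and it was stable. It stands on the ATF4 and NRF2 lists. NQO1, a quinone reductase and NRF2 target, fell by 0.34 ± 0.05, while of the 20 NRF2 genes tested 2 were higher and 2 lower in the mean of the lines, with a median of 0.00. Of 34 ATF4 genes 6 were higher and 6 lower. The shares among all genes tested were 6.7% higher and 6.05% lower.

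**Figure D3:**
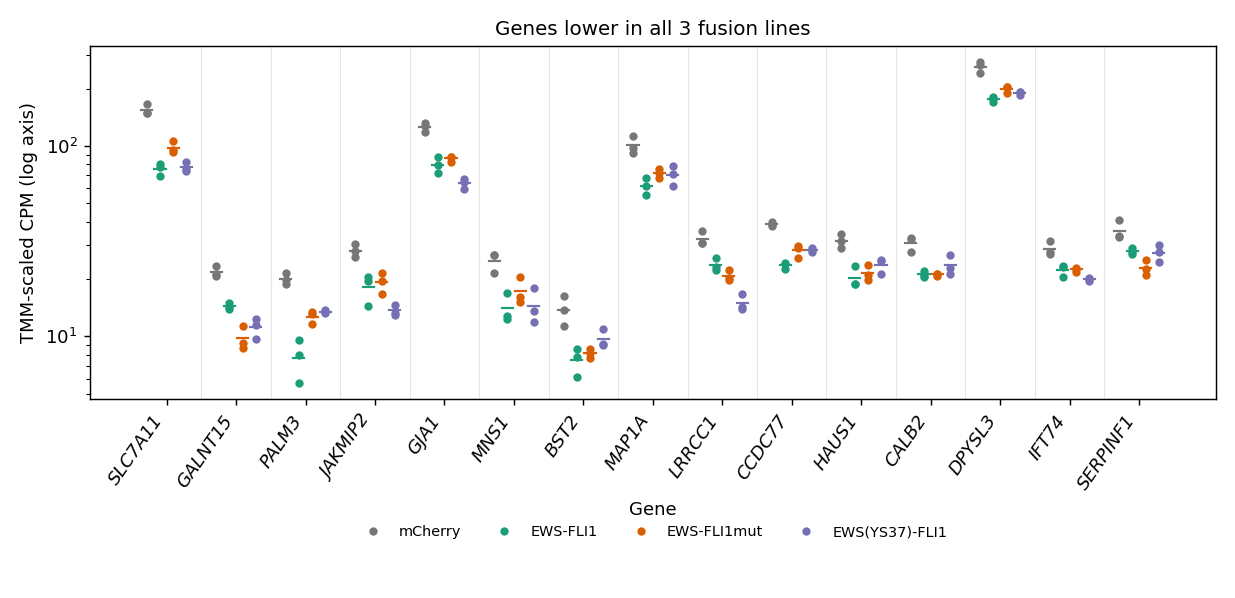
CPM (vertical axis, log scale) in each of the 12 untreated libraries for genes of the lower set, where points are libraries and bars are group means. They are those with the largest smallest change over the lines, among genes of at least 5 CPM in mCherry without overlap. By the rule of choice, the 9 fusion libraries lie below the 3 mCherry libraries in each gene. SLC7A11 was at 148 to 165 CPM in mCherry and 69.5 to 106 CPM in the fusion lines.

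GJA1, or connexin 43, the main gap junction protein of bone and many other tissues, was at 118, 132 and 127 CPM in mCherry. It was at 79.7, 87.1 and 71.9 CPM with EWS-FLI1, at 81.8, 87.8 and 87.9 CPM with EWS-FLI1mut and at 59.6, 67.3 and 64.6 CPM with EWS(YS37)-FLI1. The fusion libraries lay below mCherry without overlap, and EWS(YS37)-FLI1 was lowest. GJA1 fell by 0.73 ± 0.06 (edgeR adjusted p = 8.9e-09) and was stable. MAP1A, a microtubule-associated protein, fell from 113, 97.4 and 91.3 CPM to between 55.1 and 78.3 CPM, a change of -0.57 ± 0.08, and DPYSL3, a collapsin response mediator, from 242, 276 and 265 CPM to between 171 and 204 CPM, a change of -0.47 ± 0.05 (edgeR). CALB2 (calretinin), a calcium-binding protein, fell by 0.50 ± 0.07 and was stable. GALNT15, a glycosyltransferase that starts mucin-type O-glycans, and PALM3, a paralemmin, fell by 0.91 ± 0.13 and 0.87 ± 0.14, with PALM3 lowest in EWS-FLI1 (5.67, 9.55 and 7.95 CPM) and between 11.7 and 13.8 CPM in the other lines.

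Several lower genes serve cilia, centrosomes or the spindle, a grouping made after the values were seen. MNS1 and IFT74, which serve sperm flagella and cilia, fell by 0.72 ± 0.12 and 0.42 ± 0.08. LRRCC1, a centriole protein, fell by 0.74 ± 0.08 and most in EWS(YS37)-FLI1, where it was at 14.3, 16.6 and 13.9 CPM against 32.6 ± 2.86 CPM (SD, n = 3) in mCherry. HAUS1, a subunit of the augmin complex that nucleates spindle microtubules, fell by 0.54 ± 0.09. However, 23.4% of the stretches of its most abundant transcript occur elsewhere. PCNT, the pericentrin scaffold of the centrosome, was at 107, 101 and 106 CPM in mCherry and between 68.1 and 83.8 CPM in the fusion libraries, a change of -0.45 ± 0.05 (edgeR adjusted p = 8.5e-07).

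KIF11, the motor that pushes spindle poles apart, was at 218, 209 and 222 CPM in mCherry, at 157, 157 and 149.9 CPM with EWS-FLI1, at 175, 185 and 168 CPM with EWS-FLI1mut and at 159, 192 and 159.6 CPM with EWS(YS37)-FLI1. There was no overlap, and KIF11 fell by 0.38 ± 0.05 (edgeR adjusted p = 4.2e-05) and was stable. CENPF, KIF14, TTK and HMMR were the other common members of the G2/M list. In HMMR, 1 EWS(YS37)-FLI1 library at 66.2 CPM lay within the mCherry range of 64.4 to 72.1 CPM. Of 37 G2/M genes tested, 5 were common and lower, none common and higher, 19 were lower in the mean of the lines and none higher, with a median of -0.18. Of 42 E2F and G1/S genes, BRCA1 alone was common, 17 were lower in the mean and none higher, with a median of -0.15. For both lists the share over all genes tested was 6.05% lower and 6.7% higher. BRCA1, which acts in repair by homologous recombination, was at 113, 102 and 102 CPM in mCherry, at 63.0, 66.5 and 66.6 CPM with EWS-FLI1, at 87.7, 82.5 and 81.6 CPM with EWS-FLI1mut and at 73.2, 91.5 and 80.5 CPM with EWS(YS37)-FLI1. It fell by 0.46 ± 0.06 (edgeR). The E2F list had a median of -0.34 in EWS-FLI1, -0.08 in EWS-FLI1mut and -0.05 in EWS(YS37)-FLI1. Chromosome-structure genes outside the lists were common too, SMC3 and STAG1 of cohesin and SMC4 of condensin, with changes of -0.31 ± 0.06, -0.29 ± 0.04 and -0.39 ± 0.07; they were picked after the values were seen.

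Genes known as EWS-FLI1 targets in Ewing sarcoma cells were counted beside the 1.16% of all tested genes that were common. In the mean of the lines, 6.7% of all tested genes were higher and 6.05% lower. Of 29 reported activated genes tested, PAPPA alone was common, 4 were higher and 2 lower in the mean of the lines, and the median was -0.03. NR0B1 and NKX2-2, well-known targets in Ewing sarcoma cells, changed by -0.44 (edgeR adjusted p = 0.526) and 0.31 (adjusted p = 0.0965). Of 19 reported repressed genes, CTGF and CYR61 were common and higher, none was common and lower, 9 were higher and 2 lower in the mean, and the median was 0.25. Among 22 other ETS factors, ELF4 alone was common, with a rise of 0.31 ± 0.07.

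Among the remaining lists, 33 axon guidance genes held 3 common genes, all higher (EPHA2, SEMA7A and SEMA3F). Lists with 2 common and higher genes included 26 cadherin genes (PCDH7 and CDH4) and 19 MAP kinase feedback genes (EPHA2 and DUSP1). The ATF4 list held 2 common and higher genes and 1 lower. The lists of 25 TGF-beta, 26 Wnt and 40 lysosomal genes held 1 each, all higher. Of 33 interferon-stimulated genes BST2, which tethers budding virus, was common and lower, and 5 were lower in the mean of the lines. That mean was lower in 6.05% of all genes tested. Lists without a common gene, where 1.16% of all tested genes were common, were the tested EGF family (14), ER chaperone (19), heat shock (15), cholesterol (24), HOX (34), histone (13), osteoblast (17), neuronal (13) and blood cell (5) genes; at these sizes a count of 0 is near that share.

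How even the lines were was tested without the mCherry libraries. The test of equal levels in the 3 fusion lines was called in 66 of the 132 higher genes (50%) and in 21 of the 63 lower genes (33.3%), beside 39.7% of all genes tested. The same 9 fusion libraries entered the choice of these genes, so the shares are given as a description. Levels differed too, with mCherry medians of 55.9 CPM (higher genes), 92.3 CPM (lower genes) and 19.1 CPM (all genes tested). The largest change of a higher gene was in EWS-FLI1 for 55, in EWS(YS37)-FLI1 for 48 and in EWS-FLI1mut for 29; for the lower genes the counts were 31, 23 and 9. Some genes were named because their 3 changes lay close together, so their evenness follows from that choice. Among them was SLC12A9, a cation-chloride cotransporter family member. Its changes were 0.54, 0.49 and 0.52, with an adjusted p of 0.897 for a difference (edgeR). HHIP, which binds and restrains Hedgehog ligands, was another, with 0.58, 0.63 and 0.67 and an adjusted p of 0.896. It stayed common in 6 of the 12 fits without a library.

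The 120 genes called in all lines with mixed signs show where the lines parted. In 78 of them EWS(YS37)-FLI1 was the odd line, in 24 EWS-FLI1 and in 18 EWS-FLI1mut. LGR5, a receptor of R-spondins in the Wnt pathway, was at 7.01, 6.09 and 6.62 CPM in mCherry, at 11.7, 11.2 and 8.92 CPM with EWS-FLI1, at 13.2, 15.2 and 14.2 CPM with EWS-FLI1mut and at 2.96, 3.37 and 1.88 CPM with EWS(YS37)-FLI1. HERC3, a ubiquitin ligase, was instead higher in EWS-FLI1mut alone, at 57.5, 56.8 and 56.5 CPM against 25.3, 28.5 and 27.6 CPM in mCherry and 11.8 to 18.6 CPM in the other fusion lines. The pooled mean of such genes hides the split: LGR5 averaged 0.18 ± 0.15 (edgeR adjusted p = 0.508) and HERC3 -0.23 ± 0.12 (adjusted p = 0.221).

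Promoter sequence was compared between the higher and lower genes. RefSeq promoters of 300 bases, 250 before to 50 after the start, were matched for 101 higher, 53 lower and 11879 tested genes. The ETS consensus CCGGAAGT, searched on both strands and containing the GGAA core, was in 12 of the 53 lower genes (22.6%), in 2 of the 101 higher genes (1.98%) and in 7.79% of all tested promoters. In single lines the same letters were in 9.87%, 12.2% and 11.2% of the promoters of lower genes, and in 5.92%, 2.53% and 6.23% of those of higher genes. The lines share their mCherry libraries, so these shares are not independent of each other. Of the 12 lower genes with the consensus, CLPTM1L alone stayed common with the length correction. With the fusion libraries as a single group its adjusted p was 0.0874 in edgeR. The sets also differed in level: the median in mCherry was 92.3 CPM for the 63 lower genes and 55.9 CPM for the 132 higher genes. For all genes tested it was 19.1 CPM. GGAA alone was in 90.1% of the higher, 94.3% of the lower and 95.3% of all promoters, and GGAAGGAA in 2.97%, 1.89% and 3.55%. The AP-1 site TGANTCA was in 3.96% of the higher, 5.66% of the lower and 5.02% of all promoters, and GGAATG, a TEAD site, in 16.8%, 5.66% and 11.1%.

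**Figure D4:**
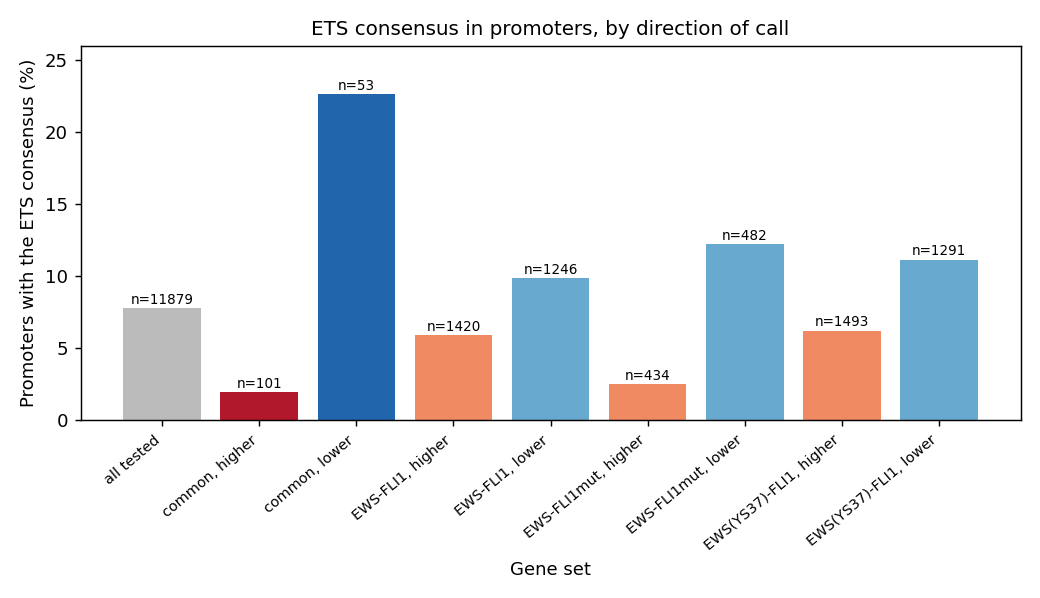
Share of RefSeq promoters that hold CCGGAAGT on either strand (vertical axis, percent) for all tested genes, the common genes and the genes called in each line (horizontal axis); n is the number of promoters. The common lower genes are at 22.6% and the common higher genes at 1.98%, around 7.79% of all.

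Stretches around the match are shown for 4 of the 12 lower genes and for 1 of the 2 higher genes with the match. They were chosen after the values were seen and do not stand for the set. Among the genes not shown, the match began 97 bases before the start in U2SURP and 59 before it in KRT8. It lay at or after the start in CLPTM1L, LSM5, PARN and TRAPPC10. Bases are from RefSeq promoters of GRCh38.p14, written 5′ to 3′ of the gene, with the match in capitals (ACTTCCGG is the same site read from the opposite strand). The coordinates are chr10:91923724-91923769 (plus) for BTAF1, chr2:171922410-171922460 (plus) for HAT1, chr1:200620796-200620853 (minus) for KIF14, chr21:29024617-29024667 (plus) for USP16 and chr7:99325848-99325897 (plus) for ARPC1A.

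BTAF1: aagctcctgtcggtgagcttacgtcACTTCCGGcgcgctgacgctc
HAT1: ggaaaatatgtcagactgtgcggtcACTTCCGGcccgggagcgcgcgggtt
KIF14: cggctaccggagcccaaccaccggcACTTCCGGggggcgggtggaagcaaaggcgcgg
USP16: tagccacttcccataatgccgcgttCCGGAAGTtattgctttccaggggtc
ARPC1A: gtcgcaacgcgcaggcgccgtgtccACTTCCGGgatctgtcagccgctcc

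The match began 21, 26, 77, 26 and 25 bases before the start in these genes. BTAF1, a regulator of the TATA-binding protein, was at 78.2, 76.0 and 76.5 CPM in mCherry and between 60.7 and 68.1 CPM in the fusion libraries, a change of -0.24 ± 0.05 (edgeR adjusted p = 0.00245). HAT1, a histone acetyltransferase, changed by -0.29 ± 0.07, the mitotic motor KIF14 by -0.43 ± 0.06 and USP16, a histone deubiquitinase, by -0.37 ± 0.08. ARPC1A, a subunit of the actin-nucleating ARP2/3 complex, rose by 0.18 ± 0.04. In its most abundant transcript 77.5% of the stretches were also found in other genes. BTAF1 changed by -0.27, -0.23 and -0.24 in the lines and KIF14 by -0.23, -0.41 and -0.64, where the difference among lines was called (adjusted p = 7.1e-04). Each of the 5 genes lost its common call in 6 or more of the 12 fits without a library.

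The common and higher genes were 0.786% of all tested genes, and the chromosomes with the largest shares of them were 20 (8 of 440, 1.82%), 7 (13 of 840, 1.55%) and 8 (8 of 550, 1.45%), which was not tested. DNA copy number was not measured in these libraries, so its part was not tested.

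The LY2835219 libraries give another readout of the same genes, compared with untreated EWS-FLI1 and without any mCherry library. After 6 h, 69 of the 132 higher genes were higher still with the inhibitor (52.3%, against 31.6% of all genes tested) and 40 were lower (30.3%, against 33.3%). After 24 h, 26 were higher (19.7%, against 23.3%) and 68 lower (51.5%, against 24.6%). Of the 63 lower genes, 39 were lower at 6 h (61.9%) and 42 at 24 h (66.7%), and 20 and 5 were higher. This comparison shares the 3 untreated EWS-FLI1 libraries with the choice of the genes, so the counts are given as a description. CLDN1 changed by 2.34 at 6 h and by -1.16 at 24 h (edgeR adjusted p = 5.2e-15 and 2.3e-08), CTGF by -0.80 and -2.66, and ITGA2 by 2.60 and 0.57. SLC7A11 changed by 0.74 at 6 h and by -0.14 at 24 h (adjusted p = 0.202). FLI1 changed by 0.72 at 6 h and -0.07 at 24 h, the latter not called (adjusted p = 0.569).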

How the data were processed

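PolyA RNA of U2OS lines was sequenced in 18 libraries. The authors deposited 1 transcript table per library with estimated counts, TPM and an effective length (other values, in bases), per the file headers. The submitters' processing notes name CASAVA, kallisto 0.46 and hg38; the transcript set and strandedness are not given in the sources used here. Of 188753 transcripts, 169797 were matched to GENCODE 29, which left out 2.59% to 2.74% of the counts of a library; counts were summed per gene and rounded.

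A single edgeR 4.0.16 quasi-likelihood fit (R 4.3.3, TMM factors, filterByExpr by group) of all 18 libraries tested 16786 genes with 12 residual degrees of freedom. The contrast was the mean of the 3 fusion lines minus mCherry. Benjamini-Hochberg adjustment ran across the whole table, with a threshold of 0.05, and SE is the absolute log2 change over the square root of F. With 15833103 to 19720986 gene counts per library, counting error is small for abundant genes and larger for genes of a few CPM. The fit was tested on simulated data.

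The common genes, the 38 lists and the naming rule were chosen with earlier results of these data known. The rule named FLI1, EWSR1, CLDN1, the 15 rising and 15 falling genes with the largest smallest change over the lines (at least 5 CPM, no overlap), 6 mixed genes, the 5 most even in each direction among changes of at least 0.5 in log2, and up to 4 common genes of each list, or its 2 most abundant members where none was common. Other genes in the text were chosen after their values were seen. Alternatives were other scalings, filters, DESeq2 1.42.0, limma 3.58.1 on log2(TPM + 1), a length offset, a replicate block, 12 libraries alone and each library or line left out. Results for 1 gene are not reported here.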

Additional observations from a re-analysis of the deposited data

Results flagged for a closer look

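In the named genes below, the 3 fusion lines differed from each other by edgeR's test of equal levels, which uses no mCherry library; the value is the range of the 3 log2 changes against mCherry. Among genes common to the lines, the range was 2.04 for FLI1, 1.99 for CLDN1, 1.04 for FBLIM1, 0.88 for EPAS1 and 0.67 for EWSR1. It was 0.51 for AFAP1, 0.40 for PAPPA and 0.38 for CTGF. Among the lower genes it was 0.80 for PALM3, 0.67 for LRRCC1, 0.56 for GALNT15, 0.49 for JAKMIP2, 0.43 for GJA1, 0.36 for SLC7A11, 0.29 for SERPINF1 and 0.27 for CCDC77. Among genes with mixed signs it was 3.96 for CCL2, 2.38 for LGR5, 2.37 for BPIFB4, 2.10 for HERC3, 2.04 for F13A1 and 1.54 for OLFML2A.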

How the results depend on the processing

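Counts are given as higher and lower. The mean of the lines gave 1124 and 1015 genes, and 132 and 63 were common, 87 of which differed among the lines. limma on log2(TPM + 1) gave 503 and 301, with 51 and 12 common; a length offset gave 493 and 329, with 53 and 12 common and 57 differing among lines. With the 9 fusion libraries as a single group there were 40 and 12. Tested against a log2 change of 0.5 there were 22 and 6, with 2 and 0 common. With the largest of the 3 p values adjusted, 38 and 9 were common, and with a change of at least 0.5 in each line 26 and 7. Leaving out 1 library gave 709 to 1265 and 506 to 1069, with 68 to 143 and 25 to 75 common and 75 to 90 differing among lines. COL1A1 reversed without the EWS-FLI1 line (-0.32) and CCL2 without the EWS(YS37)-FLI1 line (-0.0939, adjusted p = 0.853 in edgeR). The cause of these differences was not tested. DESeq2, other scalings and filters and the 12 untreated libraries alone kept all 5 counts within 1.5 times.

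Of 18 correlations between same-numbered libraries, which ran from -0.027 to 0.062, 0 were over 0.1. Those of EWS-FLI1mut with mCherry were positive for each of the 3 numbers, and 19 of 36 comparisons of a library with another group were highest for its own number. The numbers were not taken as pairs. With the replicate number as a block, the fit gave 1172 and 1053 genes, with 143 and 69 common and 87 differing among lines.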
